A study of Rattus norvegicus with 2 samples.

Results

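Zfp609, Elf2, Crebrf, Cdyl and Gtf2i are rat genes for regulators of transcription, and each hosted 1 of the 10 most abundant circular RNAs (circRNAs) of a spinal cord data set. A circRNA is a closed RNA ring that arises when the end of an exon is spliced back onto the start of the same or an earlier exon, and the reads that cross this back-splice junction were counted. The rows whose gene field held 1 of these 5 names as a whole word were taken, which gave 40 circRNAs of 11599 in the table. Of the 40, 26 were listed in the library of the bone cancer pain (BCP) rats and 34 in the Sham library. The genes were selected on the read numbers of their most abundant circRNA in these same libraries, so those read numbers and their ratio between libraries are a description.

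In the BCP group, living Walker256 cells, a rat mammary carcinoma line, had been injected into the marrow cavity of the tibia of SD rats. The Sham group had the same surgery, but its cells had first been killed by 20 minutes of boiling. The labels describe 3 animals in each group, with spinal cord taken on day 21, but each group has 1 library, and the labels do not say whether RNA was pooled. Back-splice reads totalled 78836 in the BCP library and 113033 in the Sham library. With 1 library per group there is no replicate check and no test, so every ratio compares these libraries and not the conditions. All intervals are 95%, are exact (Poisson for a level, binomial for a share, conditional binomial for a ratio), and cover the counting error of independent reads alone. No molecular identifiers are described, so several reads can stem from 1 molecule and the intervals may be too narrow. The labels conflict on the source: for both samples 1 field gives Walker256 and another gives spinal cord, and the tissue was taken as spinal cord. As a check of the tissue, 10 of 10 neuron marker genes hosted circRNAs (838 reads in BCP and 1373 in Sham), as did 3 of 6 oligodendrocyte genes (45 and 11 reads in BCP and Sham) and 1 of 6 astrocyte genes (3 and 5 reads), with Gfap and Aqp4 not listed. The microglia, epithelial or tumour and skeletal muscle lists, of 6 genes each, hosted 0 circRNAs. Most of the neuron reads came from 1 gene, Rims2, whose circRNAs had 548 reads in BCP and 879 in Sham. A list without circRNAs does not show that its cell type is absent, so this check does not settle the conflict of the labels. The part of these cell types in the results below was not tested, and in bulk tissue fewer cells of a type and less RNA per cell cannot be told apart.

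Host transcripts that give circRNAs usually do so through particular exons, so that 1 back-splice junction can take most of a gene's circular reads while other junctions of the same gene stay rare. CircRNAs lack free ends, resist exonucleases and are long-lived, and they are plentiful in neural tissue, so their level need not follow that of the linear mRNA. In human and mouse, the circRNA of ZNF609 (Zfp609) is one of the most studied: it is made from the exon that carries the start codon. The 5 proteins act at different steps of transcription. Zfp609 is a zinc finger protein that in mouse neural progenitors works with the cohesin loader Nipbl and the Integrator complex. Elf2 is a DNA-binding factor of the ETS family. Crebrf is a nuclear regulator that restrains the stress-responsive factor Creb3. Cdyl is a chromodomain corepressor that links the repressor REST to histone methyltransferases. Gtf2i encodes TFII-I, a factor that binds initiator and enhancer elements.

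The dominant circRNA of a gene was the one with most reads over both libraries. Levels are given as reads and as CPM, the count divided by the library's total of back-splice reads and multiplied by 1e6; each circRNA is counted at a single junction, so no division by length applies. The dominant circRNA of Zfp609 (rn6, chromosome 8, 71336875 to 71337745) had 509 reads in BCP, or 6456 CPM (5908 to 7042), against 765 reads in Sham, or 6768 CPM (6297 to 7265). That of Elf2 (chromosome 2, 140366057 to 140387503) had 472 reads in BCP, or 5987 CPM (5459 to 6552), against 756 reads in Sham, or 6688 CPM (6220 to 7183). For both genes the intervals of the libraries overlap. The dominant circRNA of Crebrf (chromosome 10, 16724062 to 16730140) had 414 reads in BCP, or 5251 CPM (4758 to 5782), against 796 reads in Sham, or 7042 CPM (6561 to 7549). That of Cdyl (chromosome 17, 29730437 to 29731094) had 560 reads in BCP, or 7103 CPM (6527 to 7717), against 639 reads in Sham, or 5653 CPM (5223 to 6109). These intervals do not overlap, with Crebrf lower and Cdyl higher in BCP. The share of other circRNAs of like abundance whose intervals do not overlap was not counted. Crebrf and Cdyl are therefore not shown to stand out. The dominant circRNA of Gtf2i (chromosome 12, 25431710 to 25435591) had 435 reads in BCP, or 5518 CPM (5011 to 6061), against 543 reads in Sham, or 4804 CPM (4408 to 5226), and its intervals overlap.

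**Figure D1:**
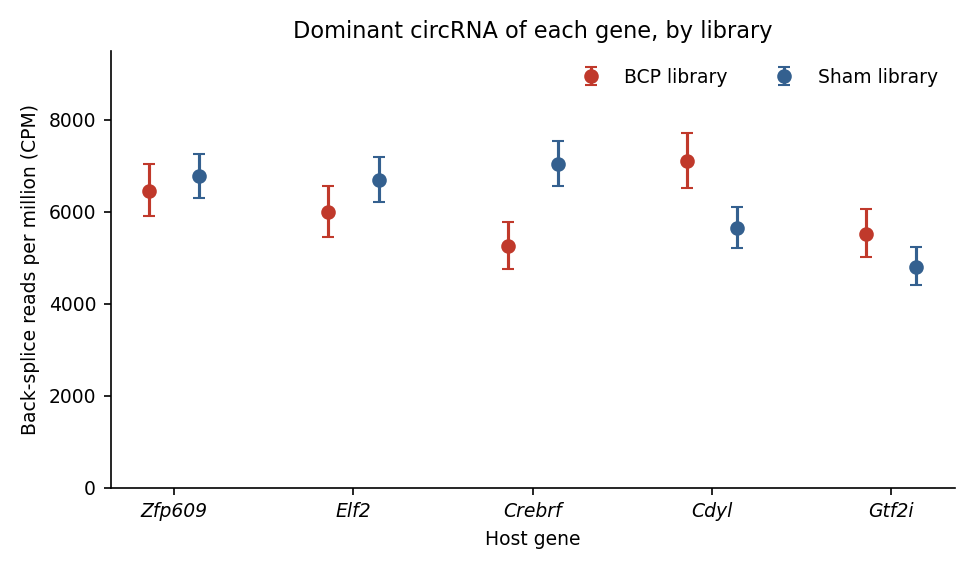
Level of the dominant circRNA of each host gene (x axis) in CPM (y axis), with the BCP library in red and the Sham library in blue, 1 library each; bars are exact 95% Poisson intervals for counting error alone. Crebrf lies lower in BCP (5251 against 7042 CPM) and Cdyl higher (7103 against 5653 CPM), while the bars of the other genes overlap. The share of other abundant circRNAs without overlap was not counted.

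The BCP over Sham ratios of the 5 dominant circRNAs ran from 0.746 for Crebrf (0.661 to 0.841) to 1.26 for Cdyl (1.12 to 1.41). Between them lay Elf2 at 0.895 (0.796 to 1.006), Zfp609 at 0.954 (0.851 to 1.07) and Gtf2i at 1.15 (1.0102 to 1.31). All 5 stayed well inside 2-fold. Median-of-ratios and TMM scaling move every log2 ratio by -0.10 and -0.12. Under them Crebrf was at 0.693 (0.614 to 0.782) and 0.688 (0.609 to 0.775), and Cdyl at 1.17 (1.04 to 1.31) and 1.16 (1.03 to 1.30). Gtf2i was at 1.07 (0.939 to 1.21) and 1.06 (0.931 to 1.204), so its interval above 1 rests on scaling to the totals. Zfp609 was at 0.887 (0.791 to 0.994) and 0.880 (0.785 to 0.985), and Elf2 at 0.832 (0.740 to 0.935) and 0.825 (0.734 to 0.927), so for these genes the interval falls below 1 only under the other scalings.

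In the order of reads over both libraries, the dominant circRNAs held places 4 to 8, with 1274 (Zfp609), 1228 (Elf2), 1210 (Crebrf), 1199 (Cdyl) and 978 (Gtf2i) reads. The circRNA just above them, without a single host name, had 1357 reads, and the one just below, of Tmeff1, had 910. Within the libraries the order of the 5 differed. In BCP it ran Cdyl, Zfp609, Elf2, Gtf2i, Crebrf, and each of the 4 neighbouring pairs was within counting error. In Sham it ran Crebrf, Zfp609, Elf2, Cdyl, Gtf2i, where Elf2 exceeded Cdyl by 1.18-fold (1.06 to 1.32) and Cdyl exceeded Gtf2i by 1.18-fold (1.05 to 1.32), while Zfp609 was within counting error of both Crebrf and Elf2. Crebrf was the circRNA with the 9th most reads in BCP and the 4th most in Sham, and Cdyl had the 3rd most in BCP and the 7th most in Sham.

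Ratios between 2 dominant circRNAs of the same library do not depend on how libraries are scaled, though they rest on the same read numbers that the genes were selected on. Crebrf had 0.739 times the reads of Cdyl in BCP (0.650 to 0.841) and 1.25 times in Sham (1.12 to 1.38). Crebrf against Gtf2i gave 0.952 in BCP (0.830 to 1.09) and 1.47 in Sham (1.31 to 1.64). Of the 10 pairs of genes, 6 had intervals that do not overlap between the libraries, against 29.1% of 55 pairs among 11 other circRNAs with 500 to 1357 reads: Cdyl against Zfp609, Elf2 or Crebrf, Crebrf against Zfp609 or Gtf2i, and Elf2 against Gtf2i. Each gene enters 4 of the 10 pairs, most of the 11 others have fewer reads and so wider intervals, and the difference from their pairs was not tested. Zfp609 against Elf2 gave 1.08 in BCP (0.9496 to 1.22) and 1.012 in Sham (0.914 to 1.12), and Cdyl against Gtf2i gave 1.29 (1.13 to 1.46) and 1.18 (1.05 to 1.32) in BCP and Sham.

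Each dominant circRNA was the most abundant of its gene in both libraries, and its share of the gene's back-splice reads was close between them. For Zfp609 it was 100% in BCP (99.3 to 100) and 98.97% in Sham (97.97 to 99.6). For Cdyl it was 94.9% in BCP (92.8 to 96.5) and 94.9% in Sham (93.01 to 96.5). Crebrf had 79.3% in BCP (75.6 to 82.7) and 78.97% in Sham (76.3 to 81.4). Lower shares were those of Elf2, with 71.3% in BCP (67.7 to 74.7) and 70.5% in Sham (67.6 to 73.2), and of Gtf2i, with 68.2% in BCP (64.4 to 71.8) and 67.04% in Sham (63.7 to 70.3). The intervals of the libraries overlap for all 5 genes, and the difference between libraries was at most 1.14 percentage points, in Gtf2i. For Gtf2i it was 3.30 points where the gene field had to hold the name alone, and 3.86 points with ends within 30 bp merged, with the higher share in BCP each time. In Crebrf and Cdyl, where the dominant circRNA was lower and higher in BCP, the summed minor circRNAs had a ratio near the dominant one's. For Cdyl this rested on few reads and varied with the processing. For Crebrf the minor circRNAs summed to 108 reads in BCP and 212 in Sham, a ratio of 0.730 (0.574 to 0.925). Where the gene field had to hold the name alone, the Crebrf ratio was 0.705, with an interval that includes 1 (0.440 to 1.11). With circRNAs listed in both libraries it was 0.778 (0.610 to 0.988), and without the most abundant minor one 0.607 (0.391 to 0.922). The minor circRNAs of Cdyl summed to 30 and 34 reads in BCP and Sham, a ratio of 1.27 with a wide interval (0.748 to 2.13). It was 1.05 (0.603 to 1.82) where the gene field had to hold the name alone. With circRNAs listed in both libraries it was 1.33 (0.739 to 2.38), and without the most abundant minor one 1.04 (0.364 to 2.85). The minor circRNAs of Elf2 had 190 reads in BCP and 317 in Sham, a ratio of 0.859 (0.714 to 1.03). Those of Gtf2i had 203 and 267 reads in BCP and Sham, a ratio of 1.09 (0.904 to 1.31). The Gtf2i ratio was 0.958 (0.758 to 1.21) with the name alone in the field, and 1.39 (1.07 to 1.801) without its most abundant minor circRNA. Zfp609 had a single minor circRNA, listed at 0 in BCP against 8 reads in Sham, for which no ratio is given.

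**Figure D2:**
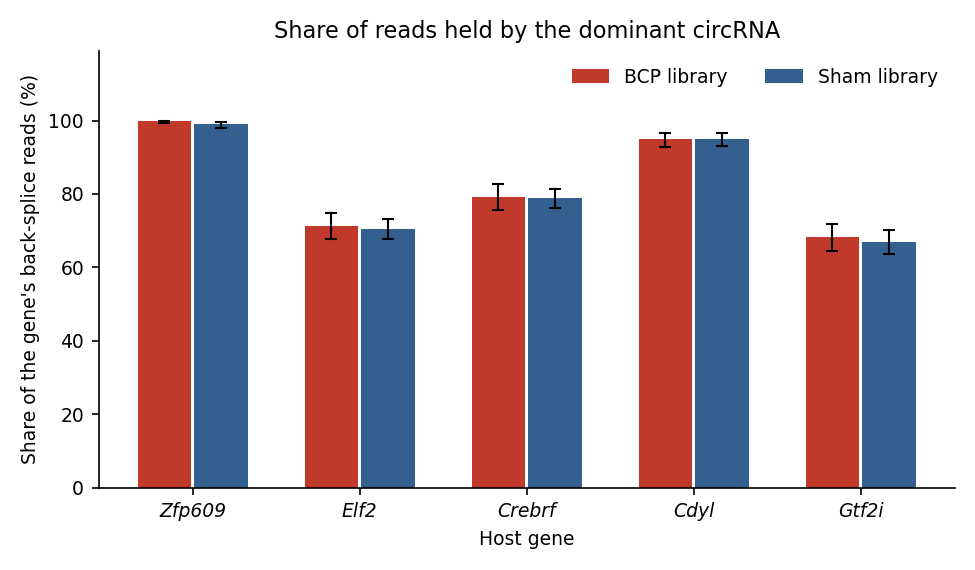
Share of each host gene's back-splice reads held by its dominant circRNA (y axis, %), in the BCP library (red) and the Sham library (blue), 1 library each; bars are exact 95% binomial intervals. Cdyl has 94.9% in BCP and 94.9% in Sham, Gtf2i has 68.2% in BCP and 67.04% in Sham, and the intervals overlap for every gene.

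The sums over all circRNAs of a gene were 522 reads in BCP and 1008 in Sham for Crebrf, a ratio of 0.742 (0.667 to 0.826), and 590 reads in BCP and 673 in Sham for Cdyl, a ratio of 1.26 (1.12 to 1.41). Elf2 had 662 reads in BCP and 1073 in Sham (0.885, 0.802 to 0.975), Gtf2i had 638 and 810 in BCP and Sham (1.13, 1.02 to 1.25), and Zfp609 had 509 and 773 (0.944, 0.843 to 1.06). These ratios are scaled to the totals, and median-of-ratios and TMM scaling lower each of them. Under either, the Gtf2i interval would include 1 and the Zfp609 interval would lie below 1. Those of Crebrf, Elf2 and Cdyl would keep their side of 1. All 40 circRNAs together took 3.71% of the BCP library and 3.84% of the Sham library. The 5 dominant ones took 3.03% and 3.10% of BCP and Sham, and the 35 minor ones 0.674% and 0.741%.

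Of the 40 circRNAs, 20 had at least 10 reads over both libraries, and 20, all minor, had 2 to 8 reads. A circRNA met the size rule with at least 10 reads, a ratio of at least 2-fold and an interval that excludes 1. Among the 20, 0 were higher and 1 was lower in BCP, against 15.2% of all 3502 circRNAs with so many reads, 7.82% as higher and 7.42% as lower. The lower one was a circRNA of Elf2 (chromosome 2, 140311231 to 140324579) listed at 0 in BCP with 10 reads in Sham, which reached the read minimum through the Sham library alone. With at least 100 reads, 0 of the 9 circRNAs of these genes met the rule, against 3.65% of 274 in the whole table. The median log2 ratio (pseudocount 0.5 reads) was -0.11 over the 20, against 0.02 over the 3502.

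**Figure D3:**
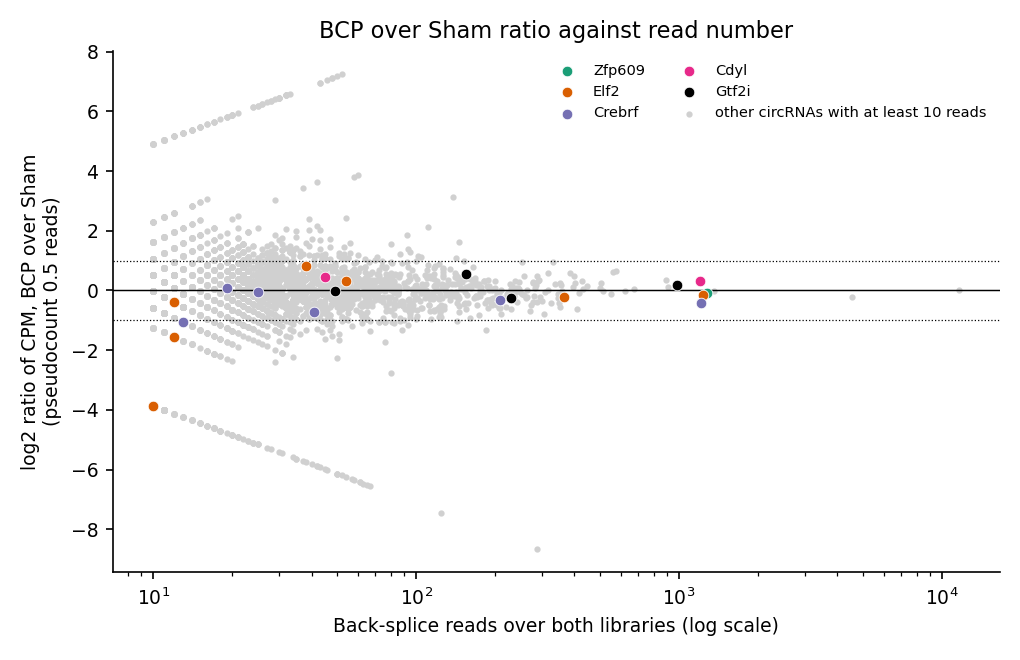
log2 ratio of CPM (BCP over Sham, 0.5 reads added to each count; y axis) against reads over both libraries (x axis, log scale) for the circRNAs of the 5 genes (colours, 20 points) and all others with at least 10 reads (grey); dotted lines mark 2-fold. The 9 circRNAs of the 5 genes with at least 100 reads lie inside the dotted lines, and the lowest coloured point is the Elf2 circRNA with 0 reads in BCP and 10 in Sham.

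Zfp609 was the simplest locus, with 2 circRNAs. The dominant one spans 871 bp. A span is the genomic distance between the back-splice ends, with any introns, and does not give the length of the RNA. The minor one (chromosome 8, 71266628 to 71337745; 71118 bp) keeps its higher end and reaches far beyond its lower end. In Sham the dominant one had 95.6 times as many reads (48.3 to 222.3).

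Cdyl resembled it, with a dominant circRNA that spans 658 bp, the shortest span of the 5, and 5 minor ones. The lower end of the dominant circRNA was used by 3 circRNAs with 99.5% of the gene's reads in BCP and 98.4% in Sham. The most abundant minor one (chromosome 17, 29730437 to 29757605; 27169 bp) had 22 reads in BCP and 23 in Sham, so the dominant one exceeded it by 25.5-fold in BCP (16.6 to 40.9) and 27.8-fold in Sham (18.4 to 44.1). Another circRNA from that end (29730437 to 29737981) had 5 reads in BCP and was listed at 0 in Sham. A pair that share the higher end (from 29682954 and from 29688207) were listed at 0 in BCP, against 4 and 3 reads in Sham. The remaining one (29688207 to 29689798) does not overlap the dominant circRNA and had 3 reads in BCP and 4 in Sham.

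Crebrf had 9 circRNAs, of which 6 start from the same lower end, 16724062 on chromosome 10, with 98.5% of the gene's reads in BCP (97.003 to 99.3) and 97.9% in Sham (96.8 to 98.7). They differ in the higher end. Besides the dominant one (6079 bp), the circRNA that ends at 16731902 had 75 reads in BCP and 134 in Sham, a ratio of 0.802 (0.597 to 1.07). The one that ends at 16727861 had 12 reads in BCP and 29 in Sham (0.593, 0.276 to 1.199). The one with the shortest span, 1090 bp, had 10 reads in BCP and 15 in Sham (0.956, 0.384 to 2.27). The one that ends at 16732436 had 3 reads in BCP and 10 in Sham. From other lower ends, the circRNA from 16706378 to 16730140 had 8 reads in BCP and 11 in Sham. The last 3 circRNAs of the gene were listed at 0 in BCP. In Sham the one from 16699071 to 16730140 had 6 reads, the one from 16706378 to 16731902 had 4, and the one from 16724062 to 16730192 had 3. Of the 5 minor circRNAs listed in both libraries, 4 had a ratio below 1, and the intervals of all 5 include 1. Over all circRNAs with at least 10 reads the median log2 ratio was 0.02, so ratios below 1 are common. The count of 4 is a description. The dominant circRNA exceeded the second by 5.52-fold in BCP (4.31 to 7.16) and 5.94-fold in Sham (4.94 to 7.19).

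Elf2 had 11 circRNAs over 76273 bp, and most of its reads met at the higher end, 140387503 on chromosome 2, which took 92.1% of its reads in BCP (89.8 to 94.1) and 91.8% in Sham (89.99 to 93.4). The dominant circRNA (21447 bp) joins this end to 140366057. The second (140357774 to 140387503; 29730 bp) is 1 of the 30 most abundant circRNAs of the table, with 136 reads in BCP and 229 in Sham, a ratio of 0.851 (0.684 to 1.06). The dominant one exceeded it by 3.47-fold in BCP (2.86 to 4.23) and 3.30-fold in Sham (2.84 to 3.84). A circRNA with a span of 166 bp (140366057 to 140366222) shares the lower end of the dominant one. It had 21 reads in BCP and 17 in Sham, a ratio of 1.77 (0.890 to 3.58). The one from 140357774 to 140366222 had 2 reads in BCP and 10 in Sham (0.287, 0.0305 to 1.35). A higher end 3 bp away, 140387500, was used by 2 circRNAs, with 25 reads in BCP and 29 in Sham for the lower end of the dominant one, and 4 and 8 reads in BCP and Sham for 140357774. Of the reads at either of these ends, 140387500 took 4.54% in BCP (3.06 to 6.45) and 3.62% in Sham (2.56 to 4.96). The remaining circRNAs of Elf2 were listed in a single library, 4 of them in Sham with 2 to 10 reads. Among these, the one from 140366057 to 140384250 shares the lower end of the dominant circRNA and had 4 reads in Sham. The one from 140384029 shares the higher end and had 2 reads in BCP.

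Gtf2i had 12 circRNAs in separate stretches of the locus, and 8 of its 11 minor ones do not overlap the dominant circRNA. The dominant circRNA (3882 bp) and another from 25431687, 23 bp away, share the higher end, 25435591 on chromosome 12. That neighbour had 78 reads in BCP and 77 in Sham, a ratio of 1.45 (1.05 to 2.02), and took 15.2% of the reads of the pair in BCP (12.2 to 18.6) and 12.4% in Sham (9.93 to 15.3). Its ratio is scaled to the totals, and under median-of-ratios or TMM scaling the interval would include 1. Further along, 5 circRNAs share the lower end 25442325, with 17.7% of the gene's reads in BCP (14.8 to 20.9) and 22.6% in Sham (19.8 to 25.6). The most abundant of them ends at 25447480 and had 85 reads in BCP and 145 in Sham, a ratio of 0.840 (0.635 to 1.11). It exceeded the 25431687 circRNA by 1.09-fold in BCP (0.792 to 1.501) and 1.88-fold in Sham (1.42 to 2.52), intervals that overlap. The one that ends at 25454041 had 20 reads in BCP and 29 in Sham (0.989, 0.530 to 1.81). The other 8 circRNAs of Gtf2i had at most 8 reads each, with 4 listed in BCP alone and 4 in Sham alone. In BCP alone the circRNA from 25442325 to 25442777 had 8 reads. Reads of Gtf2i could be split with its relatives Gtf2ird1 and Gtf2ird2, since no source used here says how reads with several matches were counted.

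**Figure D4:**
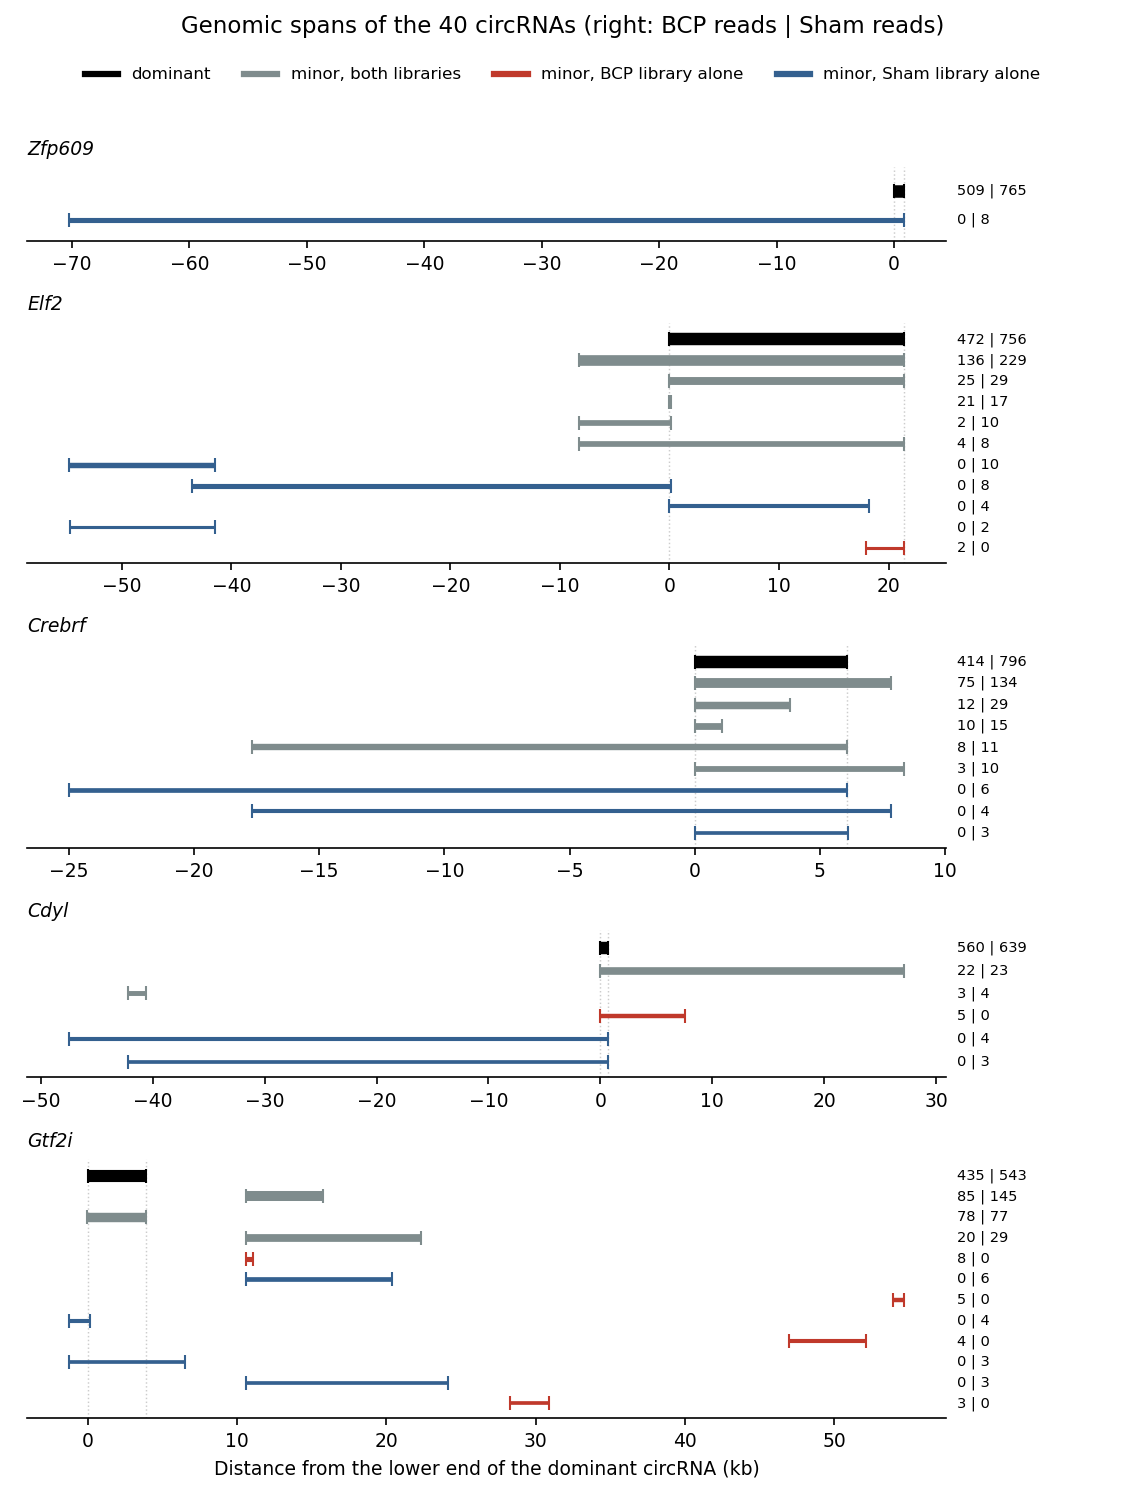
Spans of the 40 circRNAs as distance in kb from the lower end of the gene's dominant circRNA (x axis; each panel has its own scale), ordered by reads from the top, with thicker lines for more reads (log scale); numbers at the right are reads in BCP and Sham. Black lines are dominant, grey minor and listed in both libraries, red in BCP alone and blue in Sham alone; 6 of the 9 circRNAs of Crebrf start at 1 lower end, the dominant and the second circRNA of Elf2 share their higher end, and those of Gtf2i form separate stretches.

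Over the 5 genes, 18 of 35 minor circRNAs shared 1 end exactly with the dominant one (51.4%), and they held 73.0% of the minor reads. Among 287 other host genes with at least 3 circRNAs and 100 reads, 39.1% of 2129 minor circRNAs did, with 53.9% of the minor reads. In the 4 of them with as many reads as these genes, it was 43.9% of 98, with 62.4% of the minor reads. These are descriptions, and the difference was not tested. By gene, the minor circRNAs that shared an end held 98.8% of minor reads in Crebrf, 91.3% in Elf2 and 89.1% in Cdyl, but 33.0% in Gtf2i, where 1 of 11 did. The minor circRNAs had a longer genomic span than the dominant one in 22 cases. These were 1 of 1 in Zfp609, 5 of 5 in Cdyl, 6 of 8 in Crebrf, 7 of 11 in Gtf2i and 3 of 10 in Elf2. The spans of the dominant circRNAs ran from 658 to 21447 bp, so a short span was not common to them. Spans count both ends.

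Listing in a single library was spread over the minor circRNAs. Of the 40, 6 (15.0%) were listed in BCP alone, with 2 to 8 reads each and 27 in all, against 22.4% of the whole table. Another 14 (35.0%) were listed in Sham alone, with 2 to 10 reads each and 68 in all, against 36.4% of the table. The smallest count above 0 in the table is 2, so a listed 0 can hide a single read, and the Sham library held 1.43 times as many back-splice reads. The BCP-alone circRNAs belonged to Gtf2i (4), Elf2 (1) and Cdyl (1), and the Sham-alone ones to Elf2 (4), Gtf2i (4), Crebrf (3), Cdyl (2) and Zfp609 (1). Of the 15 minor circRNAs listed in both libraries, 14 had enough reads for the size rule and 0 met it, against 8.51% of 3244 such circRNAs of the whole table.

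Over both libraries, the dominant circRNA held 67.5 to 99.4% of the reads of the 5 genes. In the 287 other host genes the most abundant circRNA held a median of 55.5% (quartiles 37.7 and 75.8%, range 16.4 to 97.5%). The share was 67.5% for Gtf2i, above 66.2% of those genes, 70.8% for Elf2 (above 70.03%), 79.1% for Crebrf (above 77.4%) and 94.9% for Cdyl (above 98.6%). Zfp609, at 99.4%, had too few circRNAs to belong to such a set. Only 4 other host genes with at least 3 circRNAs had as many reads as Cdyl, the least read of the 5 at 1263 reads, and their shares were 30.2% (Rims2), 44.1% (Stk39), 92.01% (Ssbp2) and 95.6% (Gigyf2). Since the 5 genes were chosen for an abundant circRNA, a high share is in part set by that choice. Among the 30 host genes with the most abundant circRNAs, Psd3 (79.1%), AABR07060133.1 (82.4%) and App (72.3%) had the share nearest to the median of the 5 genes, 79.1%. This likeness rests on 1 summed share per gene.

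**Figure D5:**
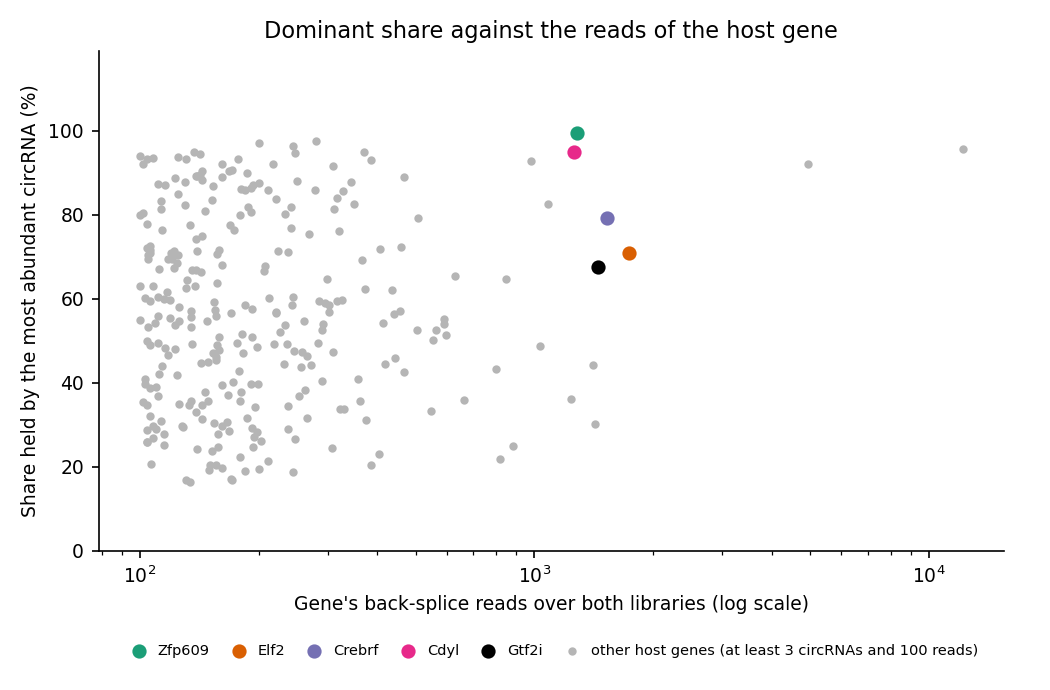
Share of a host gene's reads held by its most abundant circRNA (y axis, %) against the gene's reads over both libraries (x axis, log scale), for the 5 genes (colours) and 287 other genes with at least 3 circRNAs and 100 reads (grey). The 5 genes lie between 67.5% (Gtf2i) and 99.4% (Zfp609), and the grey points spread from 16.4 to 97.5%.

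Relatives and partners of these regulators gave far fewer circular reads. The 5 genes were selected for an abundant circRNA, so this contrast follows from that choice and is a description. From 5 lists of 113 genes, 46 genes hosted 114 circRNAs, of which 30 had at least 10 reads and none more than 106. By the size rule, 5 of the 30 were higher in BCP, 2 were lower and 23 met neither side, and the background is the 7.82% and 7.42% given above. Of these, a circRNA each of Hdac2 and Atf6 reached the read minimum through BCP alone and 1 of Stag1 through Sham alone. Among circRNAs listed in both libraries, 3 were higher and 1 was lower, where the whole table had 190 higher and 86 lower of 3244. A minimum of 20 reads left 2 on each side, where the whole table had 139 higher and 115 lower. The list circRNAs open to the rule under these 2 settings were not counted, so no shares are given.

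In the list of ETS factors, the family of Elf2, 3 of 20 genes hosted 4 circRNAs with at most 5 reads, so 0 could be placed under the rule. In the list set beside Crebrf, of CREB and bZIP factors, their coactivators and the glucocorticoid receptor gene Nr3c1, 8 of 25 circRNAs had enough reads, with 2 higher and 1 lower in BCP and a median log2 ratio of 0.25. The lower one and 1 of the higher ones belong to Atf6, a membrane-bound factor of the endoplasmic reticulum stress response: the first (chromosome 13, 89163767 to 89176307) had 11 reads in BCP and 37 in Sham (2.35-fold lower, 1.17 to 5.10), and the other (89211389 to 89229970) had 13 reads in BCP and 0 in Sham. The other higher one, of Nr3c1, had 11 reads in BCP and 4 in Sham (3.94-fold higher, 1.17 to 16.98). The coactivator genes Crebbp (43 reads in BCP, 63 in Sham) and Ep300 (31 in BCP, 57 in Sham) had ratios of 0.979 (0.648 to 1.47) and 0.780 (0.487 to 1.23). No circRNA of Creb3 was listed.

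In the list of Cdyl partners, corepressors and histone methyltransferases, 12 of 34 circRNAs had enough reads, with 3 higher and 0 lower in BCP and a median log2 ratio of 0.28. Cdyl2, the closest relative of Cdyl, had a circRNA with 27 reads in BCP and 18 in Sham (2.15-fold higher, 1.14 to 4.15), which was at 1.98 and no longer met the rule with TMM scaling. The histone methyltransferase gene Ehmt1 hosted 18 circRNAs with 89 reads in BCP and 105 in Sham, and 1 of them had 13 and 4 reads (4.66-fold higher, 1.44 to 19.6). Its partner Ehmt2 had a circRNA with 33 reads in BCP and 52 in Sham (0.910, 0.570 to 1.43). The deacetylase gene Hdac2 had 43 reads in BCP and was listed at 0 in Sham. In the list of TFII-I relatives and general transcription factors, 3 of 13 circRNAs had enough reads and 0 met the rule, with a median of -0.11. The only circRNA of Gtf2ird2 had 3 reads in BCP and was listed at 0 in Sham, and no circRNA of Gtf2ird1 was listed.

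In the list of Zfp609 partners, the cohesin and Integrator genes, 7 of 38 circRNAs had enough reads, with 0 higher and 1 lower in BCP and a median log2 ratio of -0.64. The lower one, of the cohesin subunit gene Stag1, was listed at 0 in BCP, against 40 reads in Sham. Summed over the list there were 75 reads in BCP and 202 in Sham, a ratio of 0.532 (0.403 to 0.697). Stag1 alone hosted 18 of the 38 circRNAs, with 45 of these reads in BCP and 134 in Sham, so the sum is mostly that of 1 gene. The summed ratios of the other lists had intervals that include 1, with 2.58 for ETS factors (0.777 to 9.80), 0.919 for the list beside Crebrf (0.747 to 1.13), 1.17 for the Cdyl partners (0.969 to 1.41) and 0.906 for the TFII-I relatives (0.617 to 1.32). Without the Stag1 circRNA with 40 reads in Sham, the ratio of the cohesin and Integrator list was 0.664 (0.498 to 0.878). Over its 11 circRNAs listed in both libraries it was 0.879 (0.621 to 1.24), so the low ratio rests on circRNAs listed in a single library. Nipbl itself had a circRNA with 2 reads in BCP, listed at 0 in Sham, and Zfp608, the relative of Zfp609, had one listed at 0 in BCP, against 7 reads in Sham.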

How the data were processed

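The authors deposited 1 table with whole-number back-splice read counts per circRNA for the BCP and the Sham library. Its columns headed TPM hold CPM values the authors deposited, which lie within 0.001 CPM of the count times 1e6 over the column's sum, and a count of 0 appears as 0.001. Per the labels' protocols, ribosomal RNA was removed and RNase R (16 units, 15 min) was used to remove linear RNA, so the counts describe circular RNA. Per the submitters' processing notes, the tools included CASAVA 1.8 and BWA, and the build was rn6. The sources used here do not name the circRNA caller, its annotation or its read minimum. Whether positions count from 0 or 1 is not given either, and they are printed as the table gives them. No exon annotation of that build was used here.

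CircRNAs were taken by exact gene name, scaled to the column totals, and compared with exact intervals (Python 3.11.15, scipy 1.17.1). For other host genes, names of small RNA families and names spread over 3 Mb or several chromosomes were dropped, which left 10003 circRNAs with 1 host. All 5 gene names matched a symbol in the RefSeq table of the GRCr8 assembly. As alternatives the counts were scaled by TMM with edgeR 4.0.16 and by the median of ratios with DESeq2 1.42.0. The size rule and the interval of a ratio were tried on simulated Poisson counts, without extra spread or duplicate reads. The other steps were not simulated. The members and lists were chosen with earlier results of these data known. Named were all dominant circRNAs, the minor ones with most reads, those listed in both libraries, those sharing an end with the dominant one and those past the size rule, at most 3 per list and direction, and the 3 most alike host genes; the single circRNAs of Crebbp, Ep300, Ehmt2, Nipbl, Zfp608 and Gtf2ird2, the Gtf2i circRNA with 8 reads, the pairs of genes and the circRNAs set beside those pairs were picked after their values were seen.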

Additional observations from a re-analysis of the deposited data

How the results depend on the processing

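The 5 dominant circRNA ratios stayed inside their own intervals under both scalings and, for Elf2 and Gtf2i, with ends within 30 bp merged, a choice made after seeing the data. Of 20 alternative values for the summed minor circRNAs, 1 moved out of its interval: Gtf2i without its most abundant minor circRNA was at 1.39 (1.07 to 1.801). Dominant shares moved where the gene field had to hold the name alone, which drops minor circRNAs whose field also names small RNA families: to 90.8% in BCP and 91.5% in Sham for Elf2, 93.2% and 92.9% in BCP and Sham for Crebrf, and 77.7% and 74.4% for Gtf2i. With near ends merged they were 75.1% in BCP for Elf2, and 80.4% in BCP and 76.5% in Sham for Gtf2i. With circRNAs listed in both libraries alone, Zfp609 was at 100% in Sham. Over the whole table, 274 higher and 260 lower circRNAs became 139 and 115 with at least 20 reads, and 690 and 561 with at least 5 reads, and 190 and 86 among those listed in both libraries. Scaling turned which side had more: TMM gave 228 higher against 312 lower, and median-of-ratios gave 235 against 306. For the 5 lists, 2 were higher with at least 20 reads, and 3 higher and 1 lower among circRNAs listed in both libraries. No paired analysis was possible because each group has 1 library, and for the same reason no replicate could be left out. Low read numbers limit the minor circRNAs most, since 20 of 35 had under 10 reads.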
